A study of Arabidopsis thaliana with 24 samples.

Results

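EMS27 and rrc1-689 are mutants of RRC1 in Arabidopsis thaliana, and the comparison described here is that of their splicing in red light. The members are the splicing events that the authors listed both for MLB against EMS27 and for Col-0 against rrc1-689, matched by event name, start and end. Of 517 events in either list, 136 in 112 genes met this rule, against 325 events listed for EMS27 and 328 for rrc1-689.

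The study sequenced RNA of whole seedlings in 24 libraries, from 4 lines in darkness and in red light, and 12 red-light libraries entered here, 3 per line. Seedlings had been kept cold for 2 days, exposed to white light for 6 h and then held for 60 h under continuous red light at 19 µmol per m2 and s. The labels give 4 °C for every light step, and whether seedlings grew at that temperature was unclear. Col-0 is the wild type and the ecotype of all lines. MLB is known as a phyB mutant that makes the red-light receptor phytochrome B (phyB) from the ML1 promoter, mainly in the epidermis. EMS27 is the rrc1 mutant set against MLB, and rrc1-689 the rrc1 mutant set against Col-0. The mutants therefore differ in their rrc1 allele and in their control line. These cannot be told apart in a direct comparison, so control values stand beside most results. The lesion in each allele was not given in the sources used here. Neither RRC1 nor PHYB had a shared event, so their levels were not analysed here. Nothing in the labels says that libraries came from separate plantings, so p-values measure the spread between libraries, which may be technical.

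During splicing, introns are removed at a donor site that mostly begins with GT and an acceptor site that ends in AG. The acceptor is recognised through a pyrimidine-rich stretch bound by U2AF, after which the U2 particle joins the intron. Where cells choose another acceptor, skip an exon or leave an intron in place, the same gene gives a different transcript. RRC1 is an SR-like protein related to a human U2-associated splicing factor, and it is known for its part in phyB signalling.

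The sequences below show the sites behind the largest difference between the mutants, in VLN3, which encodes an actin-bundling villin, and those of intron 1 of the clock gene TOC1. They were read 5′ to 3′ on the strand of the gene from the RefSeq TAIR10.1 genome, at the coordinates of the deposited tables. Donors hold 3 exon and 9 intron bases, and acceptors hold 20 intron and 3 exon bases. Capitals mark the GT of a donor and the AG of an acceptor.

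VLN3 donor, minus strand: actGTaaggttt
VLN3 upstream acceptor: tttgttaaaatgacctgtAGaat
VLN3 downstream acceptor: tatgtttacctgtcatacAGgtg
TOC1 intron 1 donor, plus strand: aagGTatgattt
TOC1 intron 1 acceptor: ttattctttttggaatgcAGtga

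In VLN3 the upstream acceptor adds the 173 bases of chr3:21244989-21245161 to the transcript. The stretch is shown whole because it is the one whose use differed most between the mutants. It ends in the AG of the downstream acceptor, here in lower case.

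VLN3 added region, minus strand: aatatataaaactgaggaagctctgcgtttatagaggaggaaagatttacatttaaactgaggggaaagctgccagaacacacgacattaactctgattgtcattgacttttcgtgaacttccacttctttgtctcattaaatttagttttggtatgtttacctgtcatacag

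A level is the percentage of an event's reads that include the region or intron, out of inclusion reads plus exclusion reads. Where inclusion is read at 2 junctions or boundaries, an exclusion read counts 2 times, as in the authors' own fractions. Over the 136 events, a library held 9805 to 11471 reads in EMS27, 13808 to 14351 in rrc1-689, 11119 to 12140 in MLB and 15458 to 16039 in Col-0. These sums cover the shared events and are not the depth of the libraries. The median event had 46 to 51.5 reads per EMS27 library and 65 to 68 per rrc1-689 library, so differences of a few percentage points lay within counting error in many events. Control libraries had 4 isolated counts of 0 in MLB and 4 in Col-0, in libraries MLB 1 and Col-0 2, where the other libraries of the group had 8 or more reads. They touched 5 events, in AT1G61150, AT2G30600, APX1 and E13L3, and mutant libraries had 0 such cases.

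The mean levels of EMS27 and rrc1-689 correlated with Pearson's r = 0.913 over the 136 events and those of MLB and Col-0 with r = 0.986. Mutants and their controls correlated at 0.235 (EMS27 with MLB) and 0.359 (rrc1-689 with Col-0), but the events had been listed for differing there, so nothing is read from these values. Events of the same gene share reads, so all these values are descriptions. The libraries of EMS27 correlated with each other at 0.840 to 0.923, those of rrc1-689 at 0.914 to 0.940, and libraries of one mutant with the other at 0.820 to 0.885. By mean level over libraries, both mutants lay on the same side of their own control in all 136 events, 98 above and 38 below. APX1 counts as below by these means, but its reads summed over libraries put both mutants above their control. EMS27 had 183 and 34 inclusion reads at the 2 boundaries and 147 exclusion reads, against 38, 5 and 55 in MLB. For rrc1-689 they were 314, 46 and 119, against 44, 10 and 60 in Col-0. The authors had listed each event for a difference of more than 0.05 from its control in both lists, but not for its direction.

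Between the mutants, the difference in mean level (EMS27 minus rrc1-689) was under 5 percentage points in 90 events and under 10 points in 118. Its median was 0.699 points and the median absolute difference 2.75 points, against 1.19 points between MLB and Col-0. The median level was 17.8% in EMS27 and 14.5% in rrc1-689, but 6.16% in MLB and 5.82% in Col-0. Lower levels leave less room for a difference in points, so the mutant and control values are not on equal terms. EMS27 was the higher mutant in 78 events and rrc1-689 in 57. Of the events that differed by 10 points or more, 15 were higher in EMS27 and 3 in rrc1-689.

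**Figure D1:**
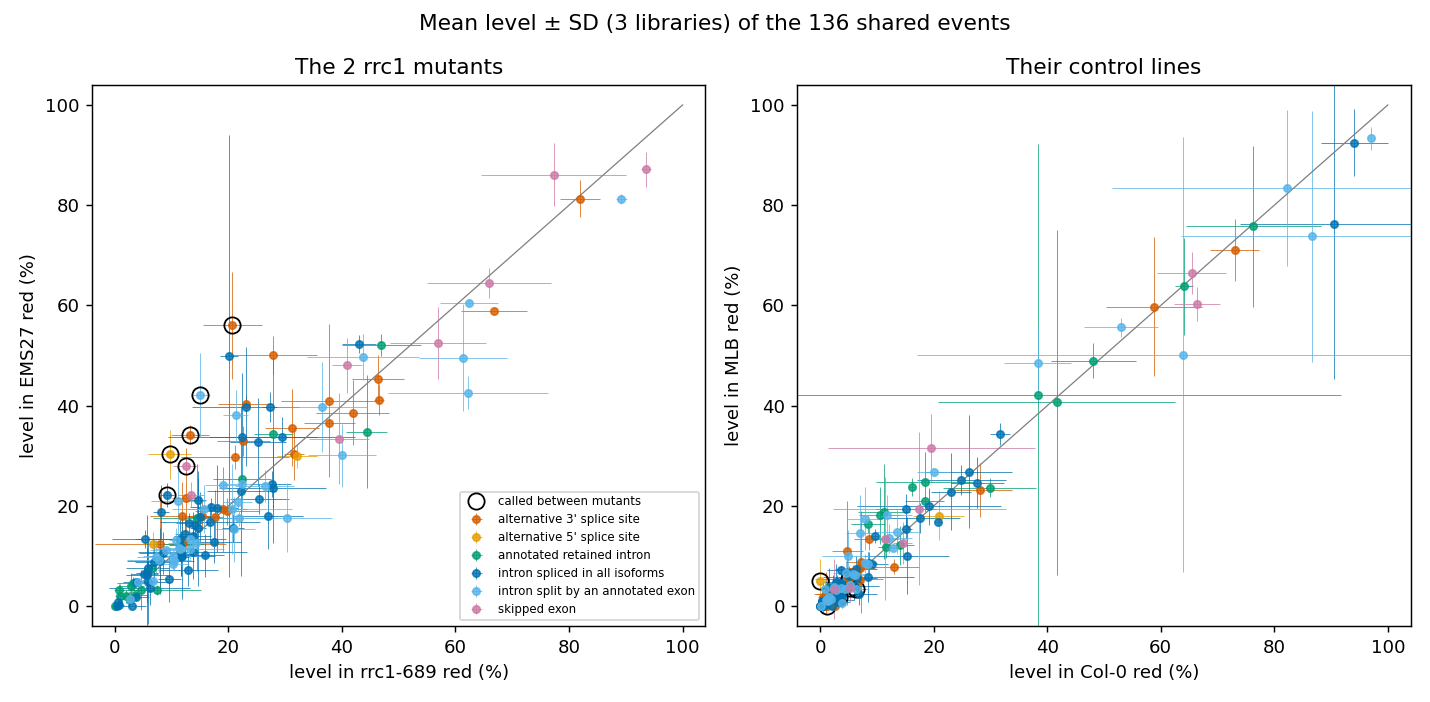
Mean level (%) ± SD over 3 libraries of each of the 136 shared events, EMS27 against rrc1-689 on the left and MLB against Col-0 on the right, coloured by kind of event. The grey line marks equal levels. Most points lie near it, and the 6 circled events, called between the mutants, lie above it on the left, while on the right they lie near the origin.

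Each event was tested by limma on the log2 ratio of inclusion to exclusion reads per library, called log2 odds here, with Benjamini-Hochberg adjustment over the 136 events. At an adjusted p below 0.05, 6 events differed between EMS27 and rrc1-689 (4.41% of those tested), all higher in EMS27. At an unadjusted p below 0.05 there were 19. Among the 6, the event in AT3G66654 was read with different exclusion junctions in the mutants, as described below. None differed between MLB and Col-0 in limma (0% of those tested), where 7 events had an unadjusted p below 0.05 and edgeR and DESeq2 also called 0. Most calls between the mutants were lost when 1 library was left out. Without EMS27 1 there were 2 calls, both in VLN3. Without rrc1-689 2 there was 1, an intron of the uridine kinase-like gene UKL2 that is not among the 6. Without EMS27 2, EMS27 3, rrc1-689 1 or rrc1-689 3 limma called 0, with 19 to 24 events at an unadjusted p below 0.05 when any library was left out. The calls in AT5G08650, AT3G66654, AT5G01650 and EX1 were thus lost whichever library was left out. Their differences kept their sign in these fits, from 1.28 (AT5G01650) to 2.32 log2 odds (AT3G66654), with unadjusted limma p up to 0.00687. All 6 were also called by edgeR, which called 14 events, and by DESeq2, which called 11, but 1 limma fit of all 12 libraries called 0, with adjusted p of 0.0576 to 0.428 for the 6. The libraries of the mutants did not overlap in 23 events (16.9%), 17 higher in EMS27 (12.5%) and 6 higher in rrc1-689 (4.41%). Most events could not be read as equal in the mutants, since the 95% interval of the difference lay within 1 log2 unit of 0 in 28 events and within 2 log2 units in 99.

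Whether the mutants departed from their own controls to a different extent was tested as (EMS27 minus MLB) minus (rrc1-689 minus Col-0) over the 12 libraries. This difference of differences was called in 3 events (2.21%), in VLN3, EX1 and TOM2A, all with a larger rise in EMS27. It is made of both departures for which the events had been listed. Its values and p-values therefore describe a selected list. By log2 odds EMS27 lay farther from its control than rrc1-689 in 71 of 136 events, and by percentage points in 87.

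The largest difference was in VLN3, in the choice between the acceptors printed above. The region is exonic in 1 of 10 annotated transcripts and intronic in 9. In that one it does not lie wholly within a coding segment, and partial overlap with the coding sequence was not checked. Its level was 44.0%, 64.5% and 59.6% in the EMS27 libraries and 18.01%, 17.4% and 26.7% in those of rrc1-689. Every EMS27 library was above every rrc1-689 library. The means were 56.01% ± 10.7 (SD, n = 3) and 20.7% ± 5.21, a difference of 2.30 log2 odds (SE 0.41, 95% interval 1.33 to 3.27, limma adjusted p = 0.0308). Controls had 5.42% ± 2.6 in MLB and 5.07% ± 6.01 in Col-0. The difference of the mutant effects was not called here (1.26 log2 odds, 95% interval -1.95 to 4.46, limma adjusted p = 0.946), with Col-0 libraries at 11.7%, 3.51% and 0%.

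The whole intron around that region (chr3:21244989-21245375) is a second listed event, and it shares its exclusion reads with the first, so the pair is not independent. Its level was 32.5%, 48.1% and 45.9% in EMS27 and 13.2%, 15.6% and 16.4% in rrc1-689, again with no overlap. The means of 42.1% ± 8.46 and 15.04% ± 1.68 (SD, n = 3) differed by 2.02 log2 odds (SE 0.34, 95% interval 1.22 to 2.83, limma adjusted p = 0.0308). Of the boundary reads in the mutants, 427 lay at the acceptor end and 2 at the donor end, if the tables give the boundary at the lower coordinate first. MLB had 3.34% ± 1.01 and Col-0 6.38% ± 2.24. The difference of the mutant effects was 2.92 log2 odds (SE 0.57, 95% interval 1.67 to 4.18, limma adjusted p = 0.0307). It was called in 4 of the 12 fits that left out 1 library, with adjusted p from 0.00816 to 0.1.

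AT5G08650, which encodes a GTP-binding protein, had another upstream acceptor that adds 192 bases (chr5:2807071-2807262, minus strand), exonic in 1 of 2 annotated transcripts. It is shown because MLB had no read for it.

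AT5G08650 upstream acceptor: atttctacgaatgcttgaAGatt
AT5G08650 downstream acceptor: acatacacatatacttgcAGgct

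The level was 34.3%, 36.1% and 32.2% in EMS27 and 9.71%, 13.9% and 16.3% in rrc1-689, with no overlap between the mutants. The means of 34.2% ± 1.92 and 13.3% ± 3.35 (SD, n = 3) differed by 1.78 log2 odds (SE 0.31, 95% interval 1.04 to 2.51, limma adjusted p = 0.0308). MLB had 0 of 977 event reads, which allows up to 0.307%, and Col-0 had 1.21% ± 1.53. The mutant effects differed by 4.13 log2 odds without a call (limma adjusted p = 0.143), a value that depends on the reads added to the 0 of MLB. This difference was called in 1 of the 12 fits that left out 1 library (limma adjusted p 0.00301 to 0.342). In the authors' deposited table of gene levels, AT5G08650 was lower in EMS27 than in MLB (log2 fold change of MLB over EMS27 1.37). No such table was used for rrc1-689.

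AT5G01650 encodes a tautomerase-family protein, and its exon of 90 bases (chr5:243034-243123) is exonic in 3 of 4 annotated transcripts. It was included at 26.6%, 28.0% and 29.5% in EMS27 and at 9.92%, 13.5% and 14.0% in rrc1-689. Replicates of each mutant lay close together and the groups did not overlap. The means of 28.0% ± 1.46 and 12.5% ± 2.22 (SD, n = 3) differed by 1.46 log2 odds (SE 0.28, 95% interval 0.80 to 2.12, limma adjusted p = 0.0317). Both mutants exceeded MLB (3.61% ± 2.7) and Col-0 (5.18% ± 0.859). The difference of the mutant effects, 2.18 log2 odds, was not called (limma adjusted p = 0.148). It was called in 1 of the 12 fits that left out 1 library (limma adjusted p 0.0116 to 0.342).

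AT3G66654, a cyclophilin-like peptidyl-prolyl isomerase gene, had an alternative donor that moves the exon end by 5 bases (chr3:2088501-2088505). Levels were 33.3%, 24.7% and 32.9% in EMS27 and 5.77%, 13.3% and 10% in rrc1-689, with no overlap. The difference in means, 20.6 percentage points, corresponded to 2.03 log2 odds (SE 0.40, 95% interval 1.09 to 2.97, limma adjusted p = 0.0317). Controls differed too: MLB libraries had 0%, 8.91% and 5.88%, while Col-0 had 0 of 252 reads, which allows up to 1.19%. The authors' lists named different exclusion junctions for this event, so its reads were not counted in the same way in the mutants. For the mutant effects the difference was -0.61 log2 odds (limma adjusted p = 0.966).

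EX1 encodes EXECUTER1, a chloroplast protein of singlet-oxygen signalling, and had 3 shared events, of which 1 was called. Its intron at chr4:16158339-16158622, spliced in 3 of 3 annotated transcripts, had levels of 24.5%, 19.7% and 22.2% in EMS27 and 8.55%, 10.5% and 8.47% in rrc1-689. The groups did not overlap. Their means of 22.1% ± 2.39 and 9.18% ± 1.16 (SD, n = 3) differed by 1.48 log2 odds (SE 0.27, 95% interval 0.85 to 2.11, limma adjusted p = 0.0308). Controls were at 1.77% ± 0.756 in MLB and 3.33% ± 0.578 in Col-0. The difference of the mutant effects was 2.29 log2 odds (SE 0.46, 95% interval 1.28 to 3.30, limma adjusted p = 0.0307), called in 2 of the 12 fits without 1 library (adjusted p 0.0294 to 0.108).

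The reads of that EX1 intron were uneven, so its sites are printed here.

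EX1 intron donor, plus strand: aagGTtagcttt
EX1 intron acceptor: cacagtcttatccatgacAGgtt

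At the donor boundary EMS27 had 5 reads and rrc1-689 had 8, whereas at the acceptor boundary they had 103 and 63. MLB had 5 and 3 reads at the donor and acceptor boundaries, and Col-0 had 8 and 14. With the donor boundary alone the contrast between the mutants was -0.03 log2 odds (limma adjusted p = 0.979). With the acceptor boundary alone it was 1.59 log2 odds and also not called (limma adjusted p = 0.0597), nor was the difference of the mutant effects (2.90 log2 odds, limma adjusted p = 0.114). Another EX1 event, an intron split by an annotated exon (chr4:16159148-16159227), was among the 4 smallest differences of events with at least 50 reads in each mutant library. It had 11.3% ± 1.97 in EMS27 and 11.5% ± 2.85 in rrc1-689 (SD, n = 3, 95% interval -0.78 to 0.75 log2 odds).

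**Figure D2:**
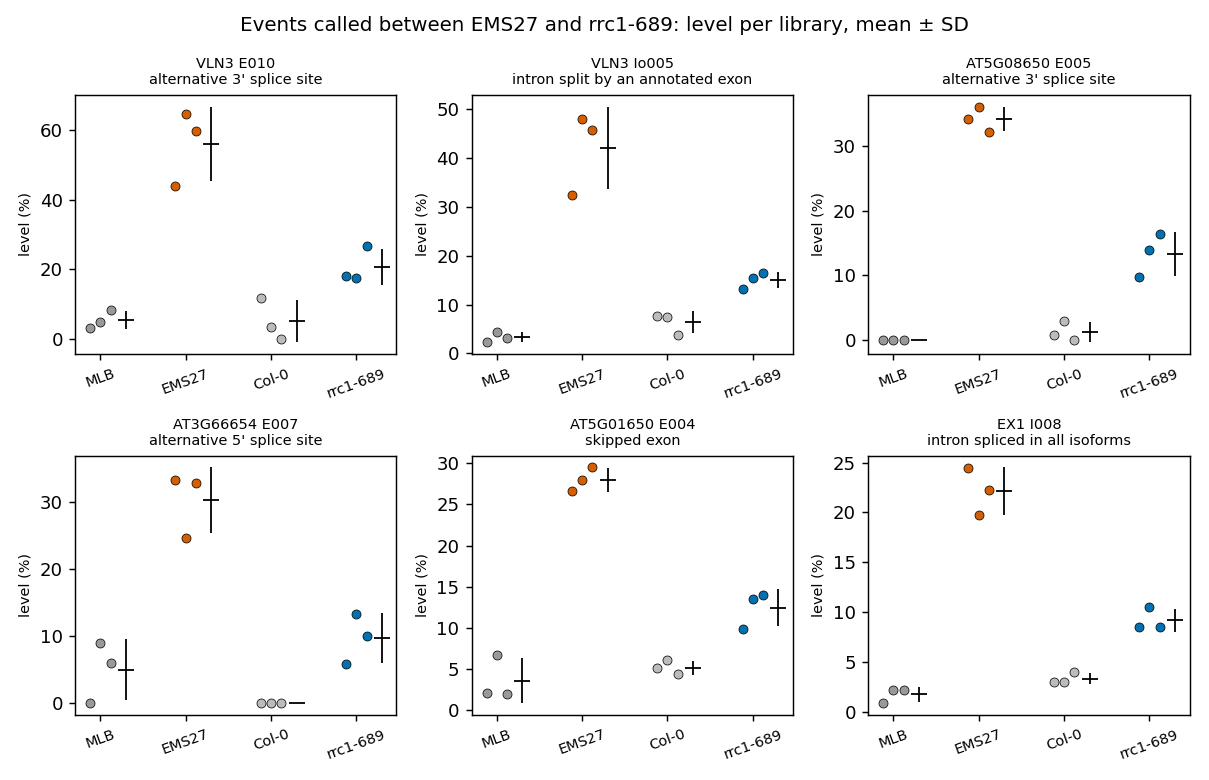
Level (%) in each library of the 6 events called between the mutants, with the mean ± SD of 3 libraries beside the points. In every panel the 3 EMS27 points lie above the 3 rrc1-689 points, and both mutants lie above the mean of their own control.

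TOM2A, which encodes a membrane protein that tobamoviruses need to multiply, was the third call of the difference of the mutant effects. Its alternative acceptor region of 191 bases (chr1:11690957-11691147, minus strand) lay at 18.2%, 11.4% and 24.7% in EMS27 and at 9.68%, 7.60% and 18.01% in rrc1-689. These ranges overlapped, and the direct difference of 0.75 log2 odds was not called (95% interval -0.41 to 1.92, limma adjusted p = 0.589). The controls stood apart, with 0 of 296 reads in MLB, which allows up to 1.01%, and 1.83%, 4.23% and 1.56% in Col-0. The difference of the mutant effects was 3.27 log2 odds (SE 0.74, limma adjusted p = 0.0496) and depended on the reads added to the 0, being 5.31 with 0.1 added and 2.55 with 1 added (limma adjusted p = 0.00815 and 0.116). It was called in 1 of the 12 fits without a library.

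Alternative acceptors numbered 23, with EMS27 higher in 15 and rrc1-689 in 8 and a median difference of 2.68 points. Introns spliced in all isoforms numbered 51 (EMS27 higher in 32, median 0.895 points), introns split by an annotated exon 34 (higher in 15, median -0.579) and annotated retained introns 17 (higher in 10, median 1.12). The 8 skipped exons were evenly divided, 4 and 4, and of the 3 alternative donors EMS27 was higher in 2. The calls were 2 alternative acceptors, 1 alternative donor, 1 skipped exon and 2 introns. Whether kinds differed was not tested.

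**Figure D3:**
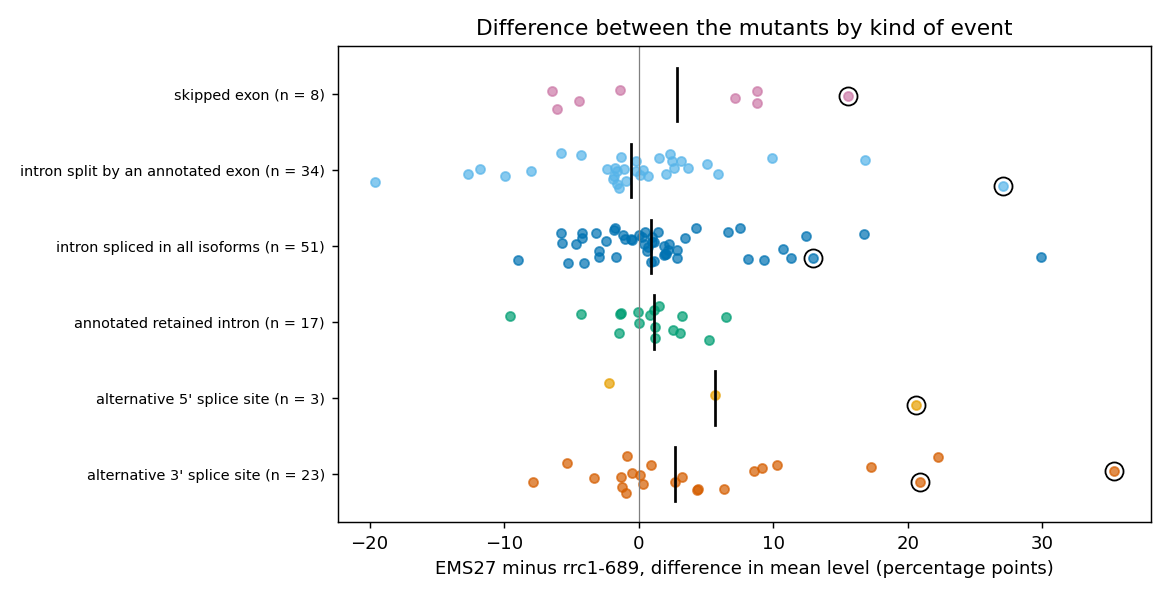
Difference in mean level between the mutants (EMS27 minus rrc1-689, percentage points) for each of the 136 events by kind, with a black bar at the median of each kind and circles around the 6 called events. Medians run from -0.579 points for introns split by an annotated exon to 5.67 points for the 3 alternative donors, and the spread of single events is wider than these shifts.

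Alternative acceptors were used more in both mutants than in controls in 21 of 23 events. Of all 136 events, 98 lay above the controls. Every event had been listed for a difference from its control, so this describes the list. The median level of the alternative acceptors was 34.2% in EMS27 and 22.6% in rrc1-689, against 5.24% in MLB and 4.81% in Col-0. In all 23 the acceptors shared a donor and both ended in AG, 19 to 469 bases apart with a median of 47. The distance was a multiple of 3 in 6. The 18 bases before each AG held a median of 11 pyrimidines at upstream and at downstream acceptors alike, with fewer upstream in 10 events, more in 10 and equal numbers in 3. In 17 genes the alternative acceptor event lay inside a listed intron event with the same exclusion junction, and the mutant difference had the same sign in 13 of these pairs. The events of a pair share exclusion reads, so agreement in sign is partly built in.

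Intron events showed at which end of the intron the boundary reads lay. All 102 intron events began with GT and ended with AG at the deposited coordinates. In 51 of them, under 10% of the boundary reads of the mutants lay at one of the ends, and in 49 of these 51 the reads were at the acceptor end. This takes the first boundary of the deposited tables as the one at the lower coordinate on either strand, which no source used here states. Of the 49, 22 are on the minus strand and depend on it. In introns that hold a listed alternative acceptor, more reads lay at that acceptor's end under this reading in 10 of 11 genes on the minus strand and 6 of 6 on the plus strand. The counts of 51 and 49 had no minimum of reads. They include TRB2, with 1 boundary read in the mutants, and emb2410, with 4. Of the intron events with at least 10 boundary reads in a group, 42 of 82 were of this acceptor-end kind in EMS27 and 42 of 87 in rrc1-689, against 5 of 67 in MLB and 11 of 76 in Col-0. The median share of boundary reads at the acceptor end was 90.6% in EMS27 and 90.0% in rrc1-689, 54.7% in MLB and 61.5% in Col-0. A level in such an intron therefore measures reads across its acceptor end and not retention of the whole intron. The minimum was applied to each group apart, so the groups hold partly different introns. In MLB the introns of TOC1 (0 and 2 boundary reads) and KEA3 (3 and 2) fell short of it. In both mutants that of AT1G20920 did (0 and 0). These shares and medians thus depend on which introns passed, and were not compared over the same introns. The events had also been listed for a difference from the control, so the controls here are a description.

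Annotated retained introns mostly went the other way. Both mutants were below their control in 14 of 17, against 38 of all 136 events. This too describes events that had been listed for a difference from the control. Median levels of these introns were 3.96% in EMS27 and 4.67% in rrc1-689, against 20.9% in MLB and 16.3% in Col-0. U2AF65A, which encodes the large U2AF subunit that binds the pyrimidine stretch, was one of them. Its intron of 100 bases (chr4:17294604-17294703) lay at 0.826%, 1.27% and 1.86% in EMS27 and at 2.33%, 2.35% and 3.48% in rrc1-689. The groups did not overlap, but the difference of -1.01 log2 odds was not called (SE 0.37, 95% interval -1.88 to -0.15, limma adjusted p = 0.224). MLB had 20.9% ± 0.511 and Col-0 18.5% ± 3.44.

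Of 5 gene lists checked, 6 genes with 7 shared events came from 4. No event of theirs was called between the mutants, against 6 of all 136 events (4.41%). At that share, the absence of calls among 7 events is not a result about these genes. The core clock list gave 2 genes of 32, the chloroplast potassium antiporters 2 of 3, the splicing factors 1 of 42 (U2AF65A), the flowering genes 1 of 16 and the light signalling genes 0 of 39. The share among all genes was not computed, so these counts show neither enrichment nor depletion.

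JMJ30, a histone demethylase gene tied to the clock, stood at nearly the same level in the mutants. Its alternative acceptor region was included at 77.5%, 85.0% and 81.5% in EMS27 and at 79.4%, 80.3% and 85.9% in rrc1-689. The ranges overlapped, and the interval of the difference was -0.83 to 0.71 log2 odds (limma adjusted p = 0.953). Controls were far lower, at 7.88% ± 1.5 in MLB and 13.0% ± 4.44 in Col-0. The intron around it, which shares exclusion reads with the region, had 60.6% ± 0.479 in EMS27 and 62.4% ± 5.16 in rrc1-689. Its interval was -0.77 to 0.53 log2 odds (limma adjusted p = 0.858), with 13.5% ± 2.91 in MLB and 12.1% ± 4.00 in Col-0.

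TOC1 encodes an evening component of the clock. Its intron 1 (chr5:24675673-24675989) had levels of 9.76%, 3.64% and 8.16% in EMS27 and 11.5%, 8.40% and 18.8% in rrc1-689. The ranges overlapped, and the difference of -0.90 log2 odds was not called (95% interval -2.09 to 0.28, limma adjusted p = 0.50). MLB had 0.835% ± 0.724 and Col-0 3.31% ± 1.91. Over the mutants the acceptor boundary had 70 reads and the donor boundary 5.

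The flowering repressor gene FLM had one of the larger differences without a call. Its intron split by annotated exons (chr1:28959372-28959743) lay at 32.7%, 42.9% and 38.7% in EMS27 and at 20%, 23.8% and 20% in rrc1-689. The groups did not overlap. The difference was 1.18 log2 odds (SE 0.29, 95% interval 0.50 to 1.86, limma adjusted p = 0.0783), and edgeR and DESeq2 called it (adjusted p = 0.0143 and 0.0271). MLB and Col-0 had the same mean, 8.42% ± 2.37 and 8.42% ± 0.556.

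KEA1 and KEA3 encode potassium antiporters of the chloroplast envelope and the thylakoid. The KEA1 intron (chr1:286808-286996) had 26.7%, 50.0% and 42.9% in EMS27 and 33.3%, 14.8% and 21.1% in rrc1-689, on 10 to 31 reads per library, with all 44 boundary reads of the mutants at the acceptor end. The ranges overlapped and the interval of the difference was wide, -0.08 to 2.38 log2 odds (limma adjusted p = 0.370). MLB had 4.62% ± 1.87 and Col-0 3.62% ± 1.15. In the authors' deposited table KEA1 was lower in EMS27 than in MLB (log2 fold change of MLB over EMS27 2.33). The KEA3 intron (chr4:2454036-2454264) had 7.69%, 8.16% and 15.7% in EMS27 and 12.9%, 12.8% and 9.38% in rrc1-689, ranges that overlapped (95% interval -1.12 to 0.70 log2 odds, limma adjusted p = 0.817). MLB had 1.19% ± 1.65 and Col-0 0.824% ± 0.714.

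**Figure D4:**
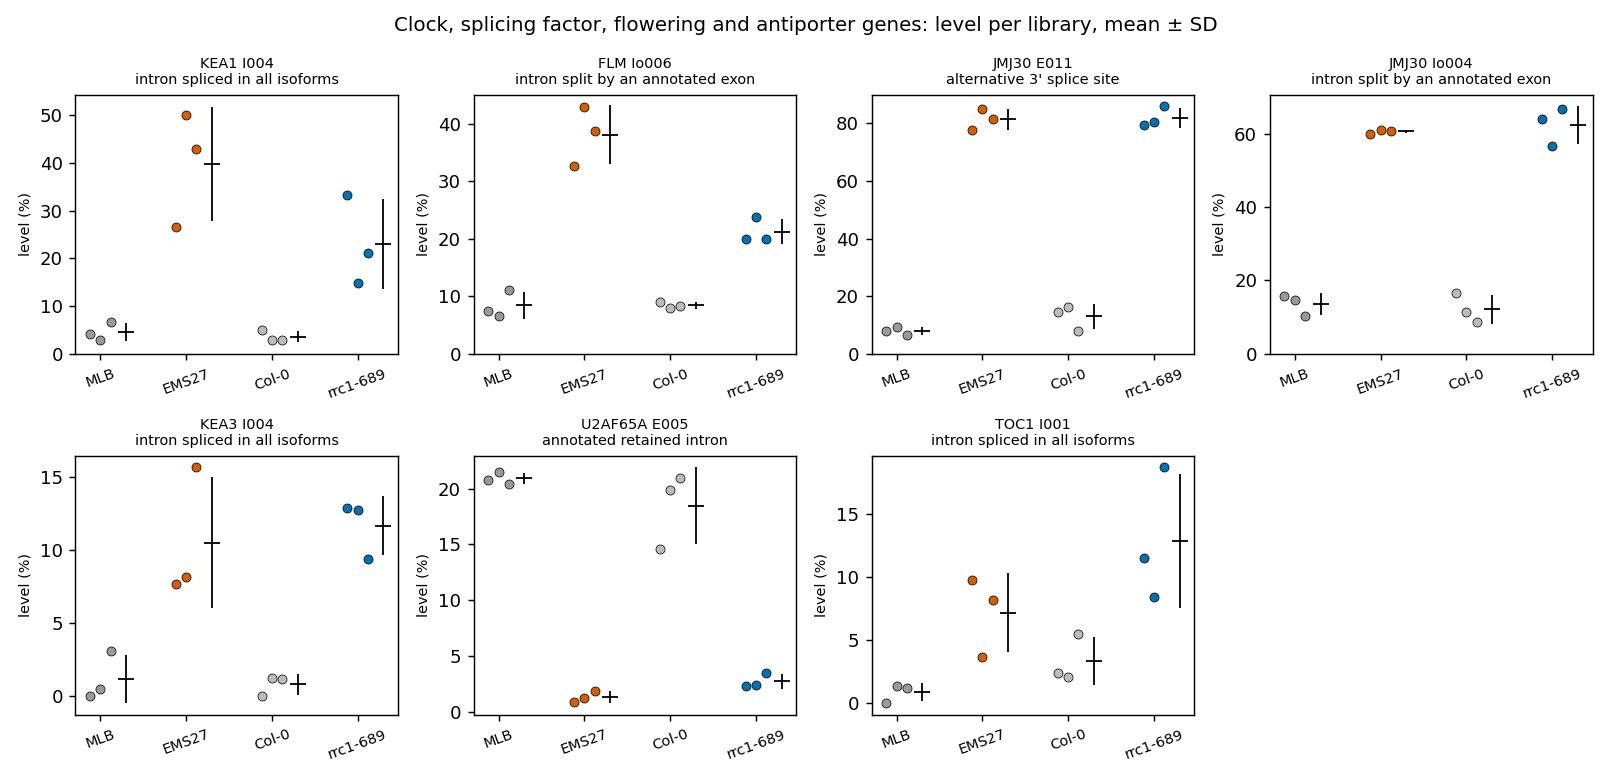
Level (%) in each library of the 7 shared events in clock, splicing factor, flowering and chloroplast antiporter genes, with the mean ± SD of 3 libraries beside the points. The mutants overlap in 5 panels and do not in those of FLM, higher in EMS27, and U2AF65A, lower in EMS27. In every panel both mutants are displaced to the same side of their controls.

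The other events with the smallest differences among those read at least 50 times in each mutant library were in CAS1, AT3G06880 and AT1G61150. CAS1, the cycloartenol synthase gene of sterol synthesis, used its alternative acceptor (chr2:2925423-2925620) at 16.9%, 23.7% and 12.8% in EMS27 and at 18.3%, 16.1% and 18.8% in rrc1-689. The ranges overlapped, with an interval of -0.82 to 0.78 log2 odds. The controls had 0 of 272 reads in MLB and 0 of 318 in Col-0, which allow up to 1.1% and 0.943%. The sites are printed because this acceptor was read in both mutants and in neither control.

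CAS1 donor, plus strand: cagGTattatct
CAS1 upstream acceptor: attttatgatattccatcAGggc
CAS1 downstream acceptor: ctctctttctctgtttgtAGttt

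AT3G06880, a WD40-repeat protein gene, had 13.4% ± 1.60 in EMS27 and 13.2% ± 1.48 in rrc1-689 (SD, n = 3), with 6.32% ± 1.14 in MLB and 6.20% ± 1.82 in Col-0. AT1G61150 had 1.97% ± 1.27 and 2.00% ± 1.52, and its control levels rested on single libraries listed at 100% for want of exclusion reads.

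Some events were picked out after their values were seen. E13L3, a glucan endo-1,3-beta-glucosidase-like gene, used an alternative acceptor at 50.1% ± 3.81 in EMS27 and 27.8% ± 7.88 in rrc1-689 with no overlap (limma adjusted p = 0.078, edgeR adjusted p = 0.000557). HBP5, a heme-binding protein gene, did so at 40.3% ± 1.82 and 23.03% ± 4.83, also with no overlap (limma adjusted p = 0.078, edgeR adjusted p = 0.0413). MLB minus Col-0 was 0.71 log2 odds for the E13L3 acceptor (95% interval -2.29 to 3.70) and 0.21 for that of HBP5 (-2.79 to 3.22). Neither was called, and E13L3 has an isolated 0 in MLB 1. The HCF109 acceptor, in a gene of chloroplast translation, was used at like levels, 45.4% in EMS27 and 46.4% in rrc1-689 (95% interval -0.75 to 0.64 log2 odds), against 5.2% in MLB and 7.1% in Col-0.

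Events lower in EMS27 than in rrc1-689 had 0 calls in limma and 3 in edgeR, in APX1, XBAT35 and AT5G36790. The XBAT35 exon, of a ubiquitin ligase gene, was included at 91.1%, 84.6% and 85.7% in EMS27 and at 92.7%, 93.6% and 94.4% in rrc1-689. These groups did not overlap (-1.06 log2 odds, limma adjusted p = 0.153, edgeR adjusted p = 0.00831), and both exceeded MLB (66.5% ± 4.20) and Col-0 (65.4% ± 6.06). AT5G36790, a haloacid dehalogenase-like hydrolase gene, had 81.2% ± 1.03 in EMS27 and 89.2% ± 0.943 in rrc1-689, with no overlap (limma adjusted p = 0.085, edgeR adjusted p = 1.64e-06). Its control lines also stood apart, at 93.3% ± 2.33 in MLB and 97.1% ± 0.172 in Col-0, and its exon flanks occur more than once in the genome, so reads of a copy may be among these. APX1, an ascorbate peroxidase gene, had 42.6% ± 3.35 in EMS27 and 62.3% ± 14.1 in rrc1-689 (edgeR adjusted p = 0.0236, limma adjusted p = 0.253). The ranges of the APX1 intron overlapped, and its controls spread widely, at 50.2% ± 43.4 in MLB and 63.9% ± 46.8 in Col-0. DRM3, of RNA-directed DNA methylation, had the largest difference above 0 without a call, 29.9 points, on 4 to 10 reads per EMS27 library, where levels ran from 16.7% to 100%. In the controls DRM3 had 0 inclusion reads of 53 event reads in MLB, and 2 inclusion and 52 exclusion reads in Col-0.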

How the data were processed

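RNA-seq of whole seedlings was analysed from 12 red-light libraries, grouped by sample title. The authors aligned reads with TopHat2 2.1.1 to TAIR10, per the submitters' processing notes, and compared splicing with ASpli 1.9, per the deposited information sheet. For each listed event the authors deposited raw counts of junction or boundary reads per library and a fraction of inclusion or retention per group, with a log2 fold change, p-value and FDR. Events were listed by the authors for a difference in fraction above 0.05 and a bin FDR below 0.05, per that sheet. No source used here gives the handling of strand or shared reads. Counts summed over libraries gave back these fractions, within 0.0001, in 135 or 136 of the 136 events per group.

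Levels were computed per library. The log2 odds, with 0.5 added to inclusion and to weighted exclusion reads, were fitted in limma 3.58.1 (R 4.3.3), mutants and controls apart, and the difference of the mutant effects over 12 libraries. The steps were tested on simulated data. In 134 events the junctions were the same in both lists. In AT1G47278 an inclusion junction held by 1 list was left out, and in AT3G66654 the exclusion reads were used as each list gave them. A permutation test of 3 against 3 libraries cannot go below p = 0.1. Limits for 0 counts use 3 reads and cover counting error only. Alternatives were 0.1 or 1 added, untransformed and arcsine levels, minimum reads of 10 or 20, a single boundary, 1 fit of 12 libraries, edgeR 4.0.16, DESeq2 1.42.0, leaving out each library, and a replicate block.

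Events named were the 8 largest called differences per direction, every event of 5 gene lists, the 4 smallest differences of events with 50 or more reads per mutant library, and up to 4 called differences of mutant effects. The members and lists were chosen with earlier results of these data known. Libraries were treated as unpaired, since those of the same replicate number did not deviate together, as given in the closing section. Gene names and sequences came from RefSeq TAIR10.1, and 102 of 102 introns began with GT and ended with AG there, which is how the nuclear coordinates were checked.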

Additional observations from a re-analysis of the deposited data

Results flagged for a closer look

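In 3 events the departure of EMS27 from MLB and that of rrc1-689 from Col-0 differed by limma's test of the difference of the mutant effects, as log2 odds. The VLN3 intron gave 2.92, the EX1 intron 2.29 and the TOM2A acceptor 3.27. In VLN3 and EX1 the mutants themselves differed, while in TOM2A the value came mostly from the controls, of which MLB had 0 reads and Col-0 did not. The line that carries the EMS27 allele and the allele cannot be told apart in these values. The events had been listed for both departures, so these values describe a selected list.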

How the results depend on the processing

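The 6 calls between the mutants, all higher in EMS27, became 5 with 0.1 added, 7 with 1 added, 11 with untransformed levels (10 higher, 1 lower), 10 with arcsine levels (1 lower) and 12 with at least 20 reads (11 higher, 1 lower). edgeR called 14 (11 higher, 3 lower) and DESeq2 11 (10 higher, 1 lower). Limma called 0 with the second boundary alone and 0 in 1 fit of all 12 libraries. Leaving out 1 library gave 0 to 2 calls, 1 of them outside the 6, all higher in EMS27 and 0 lower. The 0 calls between MLB and Col-0 became 1, lower in MLB, with 0.1 added, and 0 to 1 without a library, the 1 being higher in MLB and found without MLB 1. The 3 calls of the difference of the mutant effects became 8 with untransformed levels, 0 with either boundary alone, and 0 to 3 without a library, being 0 without EMS27 2, EMS27 3, MLB 3, Col-0 1, Col-0 2 or any rrc1-689 library. The calls without a library included AT5G08650 and AT5G01650, each in 1 fit, which are not among the 3. With the first boundary alone the EX1 intron reversed, to -0.029 between the mutants and -0.12 in the difference of effects, because its reads lay at the other boundary. For single events between the mutants, 369 alternative values kept the side of the threshold, 54 lost the call and 12 gained it. The causes of the other changes were not tested.

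With a replicate block limma called 0 events between the mutants, with 19 at an unadjusted p below 0.05, 0 between the controls and 0 in the difference of the mutant effects. Libraries of the same number did not deviate together, with correlations of -0.015, 0.056 and -0.028 between the mutants and -0.003, -0.195 and 0.054 between the controls. These deviations include counting error, which can hide a shared deviation, so the values cannot exclude a pairing.

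Depth limits these results: the median 95% interval between the mutants was 1.80 log2 units wide, and 56 of 136 events had 50 or more reads in each mutant library.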
